A study of Mus musculus with 3 samples.

Results

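Astrocyte effector genes are the genes by which astrocytes carry out their work, and 10 of them were followed in a list of Sp9 binding peaks from the neonatal mouse olfactory bulb. They were Gfap, Aqp4, Slc1a2, Slc1a3, Glul, Gja1, Aldoc, Fabp7, S100b and Aldh1l1. The rule for members uses gene names only, but the set was proposed with earlier results of these data known. Every listed peak whose gene name equals one of these 10 names was taken, and a gene without such a peak counts as having none listed. Of the 10 genes, 6 had a listed peak, and these 6 genes shared 7 of the 19979 peaks in the list. Sp9 is a zinc finger transcription factor of the Sp family, which can bind GC-rich DNA and is needed for the development of olfactory bulb interneurons. The chromatin was immunoprecipitated with a homemade Sp9 antibody in 2 libraries and left without antibody in 1 input library, all from bulbs of CD1 mice at postnatal days 0 to 2. All 3 samples shared strain, age and tissue, and no genotype or treatment set them apart. How many animals or pooled bulbs went into a library is not stated in the labels.

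Astrocytes take up glutamate released by neurons, turn it into glutamine, pass water and ions to blood vessels and couple to each other through gap junctions. Many of these functions are acquired after birth, while Slc1a3 and Fabp7 are already active in the radial glia from which astrocytes arise. In the olfactory bulb, newborn interneurons enter tissue that is being populated by such glia. The immunoprecipitated chromatin came from whole bulbs, so the cell type that carried each peak was not measured. No expression was measured either, and the label of the set rests on textbook knowledge of the genes.

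The peak score is the authors' value, of which there is 1 per peak and none per library. No source used here gives its formula, so scores are ranked within the list and no error can be attached to them. Over the whole list the score ran from 80.01 to 3139.09, with quartiles of 127.05, 210.06 and 353.56, and peaks had a median width of 986 bp. Positions are in mm9, as the list gives them. The list gives the name of a gene but no distance to it, so "linked" means only that a peak carries the gene's name, and its place relative to the gene's start, exons or introns is not known. The depth of the libraries is unknown, and a gene with no listed peak may have had a signal that did not enter the list.

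The astrocyte effector genes had listed peaks in a share close to that of coding genes in general and fewer peaks at or above the median score, by about 1 gene in the 10. A listed peak was linked to 6 of the 10 (60.0%), beside 53.2% of 21896 protein-coding genes. A peak at or above the median score was linked to 2 of the 10 (20%), beside 34.1% of coding genes. The same 2 genes, Glul and Slc1a2, also exceeded the upper quartile, which 18.5% of coding genes did. Of the 7 peaks, 5 scored below the list's median, 3 of them only just, and among peaks of similar width 3 of the 7 did. The highest peak of each linked effector gene had a median score of 189.05, beside 274.08 over the 11650 linked coding genes. Of the 6 linked genes, 5 had a single peak and S100b had 2, and a single peak was also the rule among linked coding genes (71.9%). With 10 genes, 1 gene more or less moves such a share by 10 percentage points, and these counts are a description with no test.

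**Figure D1:**
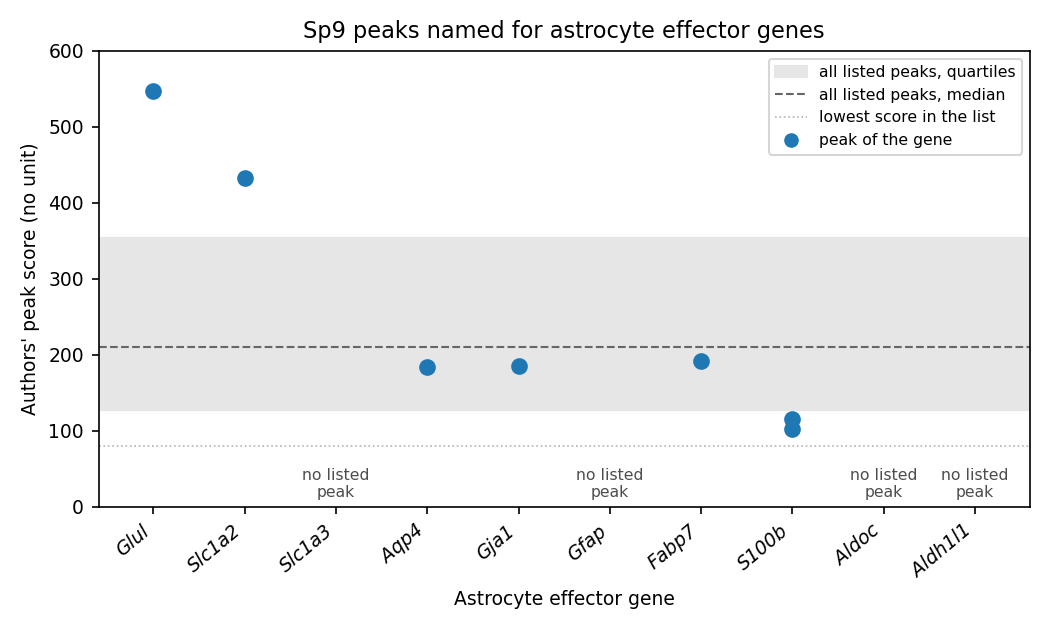
Score of every listed peak named for each of the 10 astrocyte effector genes, with the quartiles (grey band, 127.05 to 353.56), median (dashed, 210.06) and lowest score (dotted, 80.01) of all 19979 peaks. Glul and Slc1a2 lie above the band, the 3 peaks of Aqp4, Gja1 and Fabp7 lie just under the median, both S100b peaks lie below the band, and 4 genes have no listed peak.

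The highest scores belonged to the glutamate genes. Glul encodes glutamine synthetase, which joins ammonia to the glutamate that astrocytes take up. Its peak on chromosome 1 from 155746620 to 155748073 scored 547.07, above 90.6% of all peaks, and was 1453 bp wide. Slc1a2 encodes GLT-1, the main glutamate transporter of mature astrocytes. Its peak on chromosome 2 from 102498651 to 102499692 scored 432.79, above 83.1% of all peaks, and was 1041 bp wide. Slc1a3 encodes GLAST, the glutamate transporter of radial glia and young astrocytes, and had no listed peak. One transporter of the pair was thus linked to a peak in the upper quartile and the other to none. The 250 bases before the annotated start of each of these 3 genes are printed because the genes cover the highest peaks and the absent one; they come from RefSeq (GRCm38.p6) and are written 5′ to 3′, with capitals marking each GGGCGG, the core of the GC box, on either strand.
Glul, chr1:153899679-153899928 (+ strand): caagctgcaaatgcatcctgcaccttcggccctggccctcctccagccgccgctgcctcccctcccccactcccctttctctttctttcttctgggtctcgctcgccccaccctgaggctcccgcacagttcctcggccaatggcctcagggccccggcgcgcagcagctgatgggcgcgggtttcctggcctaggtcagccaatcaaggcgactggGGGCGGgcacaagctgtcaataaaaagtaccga
Slc1a2, chr2:102706188-102706437 (+ strand): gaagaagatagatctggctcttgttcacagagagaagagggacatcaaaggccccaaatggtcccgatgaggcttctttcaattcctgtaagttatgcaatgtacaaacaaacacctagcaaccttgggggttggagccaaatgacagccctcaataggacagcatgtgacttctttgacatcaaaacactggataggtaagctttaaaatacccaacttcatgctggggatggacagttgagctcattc
Slc1a3, chr15:8710808-8711057 (- strand): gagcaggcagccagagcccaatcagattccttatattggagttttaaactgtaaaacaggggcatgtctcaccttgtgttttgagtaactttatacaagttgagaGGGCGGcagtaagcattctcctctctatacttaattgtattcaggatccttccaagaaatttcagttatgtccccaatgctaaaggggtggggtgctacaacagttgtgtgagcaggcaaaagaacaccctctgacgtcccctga
The window of Slc1a2 belongs to an annotated start inside the gene model and not at its outer edge. The start windows are in another build than the peaks, so no peak was placed on them.

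The membrane channels of astrocytes, Aqp4 and Gja1, were linked to 1 peak each, and both scored just under the list's median. Aqp4 encodes the water channel of astrocyte endfeet on blood vessels. Its peak on chromosome 18 from 15647979 to 15648466 scored 183.85, above 43.9% of all peaks. Gja1 encodes connexin 43, the main gap junction protein of astrocytes. Its peak on chromosome 10 from 56426536 to 56427988 scored 185.67, above 44.4% of all peaks. The scores of the 2 channel genes were close to each other, but the shapes of their peaks were far apart. That of Aqp4 was 487 bp wide, and only 1.25% of all peaks were narrower, whereas that of Gja1 was 1452 bp wide, and 84.9% were narrower.

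The small binding proteins Fabp7 and S100b were linked to 3 peaks, all below the median. Fabp7 encodes the brain fatty acid binding protein, a marker of radial glia. Its peak on chromosome 10 from 57486358 to 57487147 scored 192.42, above 46.0% of all peaks, and was the highest of the 5 peaks under the median. S100b encodes a calcium-binding protein of astrocytes. It was the only gene of the set with 2 peaks, on chromosome 10 from 75727038 to 75727742 with a score of 115.75, and from 75755953 to 75756598 with a score of 101.83. Both S100b peaks scored below the list's lower quartile, and 28.2 kb lay between them. With Gja1, these genes put 4 of the 7 peaks on chromosome 10, which held 5.10% of the list; these 3 genes themselves lie on that chromosome.

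Gfap and both metabolic enzymes had no listed peak. Gfap encodes the intermediate filament protein that marks mature and reactive astrocytes. Aldoc encodes aldolase C, the brain form of a glycolytic enzyme, and Aldh1l1 encodes a folate enzyme widely used as a marker of astrocytes. The bases before the start of the 2 enzyme genes are printed in the same way, since each holds a GC box core although neither gene had a listed peak. Aldoc has a pair of start windows; the one at the outer edge of the gene is shown, and the other holds no GC box core. The window of Aldh1l1 belongs to an annotated start inside the gene model.
Aldoc, chr11:78322823-78323072 (+ strand): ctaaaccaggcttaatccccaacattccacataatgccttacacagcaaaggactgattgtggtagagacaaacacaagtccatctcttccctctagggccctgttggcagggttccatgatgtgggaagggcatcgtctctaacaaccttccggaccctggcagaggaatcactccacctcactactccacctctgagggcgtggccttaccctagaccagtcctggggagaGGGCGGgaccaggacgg
Aldh1l1, chr6:90550543-90550792 (+ strand): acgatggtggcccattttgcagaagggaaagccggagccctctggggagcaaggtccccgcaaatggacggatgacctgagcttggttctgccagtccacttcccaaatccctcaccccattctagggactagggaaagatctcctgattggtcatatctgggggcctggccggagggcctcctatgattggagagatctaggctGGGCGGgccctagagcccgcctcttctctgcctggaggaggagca

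The list was also read along the chromosome around the genes without a peak, using the order of coding genes in RefSeq. Between the nearest peaks named for the genes before and after Slc1a3, which were Nipbl (279.75) and Nadk2 (532.36), 605 kb of chromosome 15 held no listed peak under any name. Only 3.24% of the gaps between adjacent peaks in the list were longer, the median gap being 58.1 kb. That share counts every gap once, whereas this span was picked for holding a gene without a peak, which favours long gaps. The corresponding span of Aldh1l1 was 141 kb, between a peak of Klf15 (536.03) and one of Slc41a3 (138.46). Those of Gfap (43.2 kb, between Eftud2 at 183.10 and Kif18b at 181.80) and Aldoc (26.2 kb, between Spag5 at 121.81 and Pigs at 296.44) were shorter than the median gap. Slc1a3 therefore lay in a stretch poor in peaks, whereas Gfap and Aldoc lay between neighbours with peaks close by. The Slc41a3 peak that bounds the span of Aldh1l1 lies on chromosome 6 from 90554588 to 90555284, and the other 2 peaks of that name begin at 90610606 and 90612123. A name marks only the gene that the authors assigned, so a peak that carries a neighbour's name could lie nearer to an effector gene than that name shows.

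Around the genes that had a peak, the surroundings differed just as much. No other listed peak had its centre within 100 kb of those of Glul, Slc1a2, Gja1 and Aqp4, so that 4 of the 7 effector peaks (57.1%) stood alone, beside 19.3% of all peaks. The Glul peak was 349 kb from the next peak at lower positions, named Npl (85.34), and 304 kb from that at higher positions, named Zfp648 (352.57). The Gja1 peak was 418 kb from one named Tbc1d32 (336.89) and 321 kb from one named 4930467K11Rik (112.67). These 2 peaks were the only listed peaks within 300 kb of their own centres. The Slc1a2 peak had 2 other peaks within 300 kb, one of which, named Fjx1, scored 862.70 and lay 206 kb away. The Aqp4 peak lay 338 kb from one of Kctd1 (253.88) and 205 kb from one of Chst9 (134.63). The peaks of Fabp7 and S100b stood in denser surroundings than those 4 peaks, with 9 other peaks within 300 kb of each. Within 100 kb they had 2 or 3 others, near the median of 2 over all listed peaks. Around Fabp7, 4 of the 9 scored above its own peak, and around the higher S100b peak 5 of the 9 did. The nearest neighbour of Fabp7 was a peak of Smpdl3a (108.50) at 27.2 kb, and that of S100b under another name was one of Dip2a (415.16) at 50.6 kb. Among the 20 coding genes directly before or after an effector gene, 13 had a listed peak (65.0%), beside 53.2% of coding genes.

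**Figure D2:**
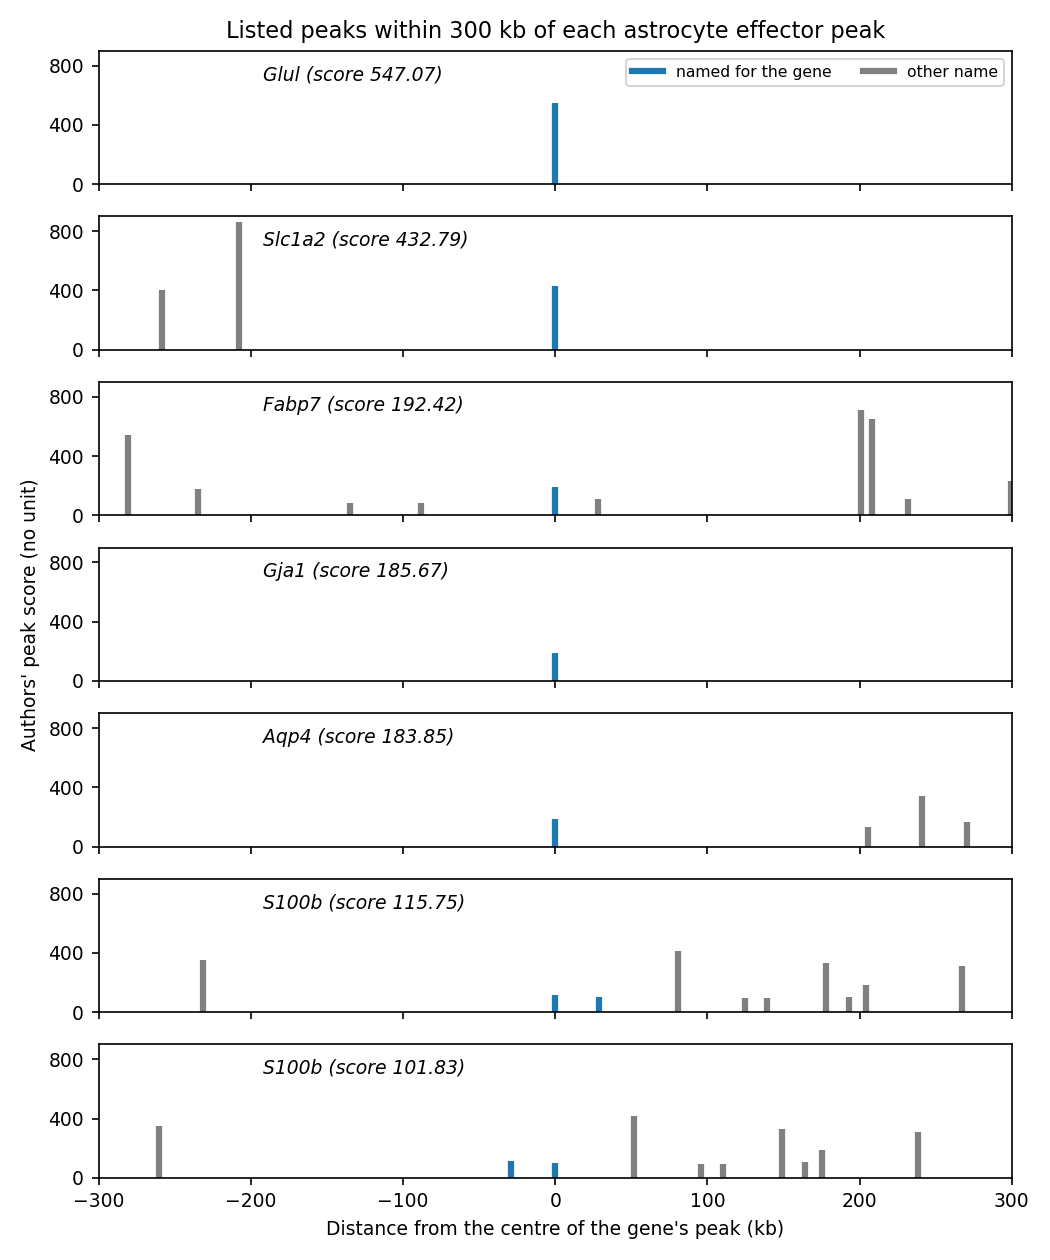
Score of every listed peak (vertical axis) against its distance in kb from the centre of each of the 7 astrocyte effector peaks, 1 panel per peak, ordered by score; blue bars carry the name of the gene and grey bars another name. The peaks of Glul and Gja1 stand alone within 300 kb, while those of Fabp7 and S100b each have 9 other peaks around them.

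Wider peaks score higher in this list, so each effector peak was also ranked among peaks whose width was within 10% of its own. Glul and Gja1 give the plainest contrast, with widths of 1453 and 1452 bp and scores of 547.07 and 185.67. The median score of peaks of that width was 390.91. The Glul peak exceeded 81.6% of them and the Gja1 peak 5.01%, so that Gja1 had a broad but low-scoring peak. The Slc1a2 peak exceeded 92.0% of peaks of its width, whose median was 217.27. The Aqp4 peak exceeded 91.9% of the 471 peaks of similar width (median 107.94), although it lay below the median of the whole list. In all, 4 of the 7 effector peaks scored above the median of their width class and 3 below it. At a given width, Aqp4 ranked beside Slc1a2. The Fabp7 peak exceeded 75.8% of its width class, whereas the S100b peaks exceeded 48.9% and 38.4% of theirs.

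**Figure D3:**
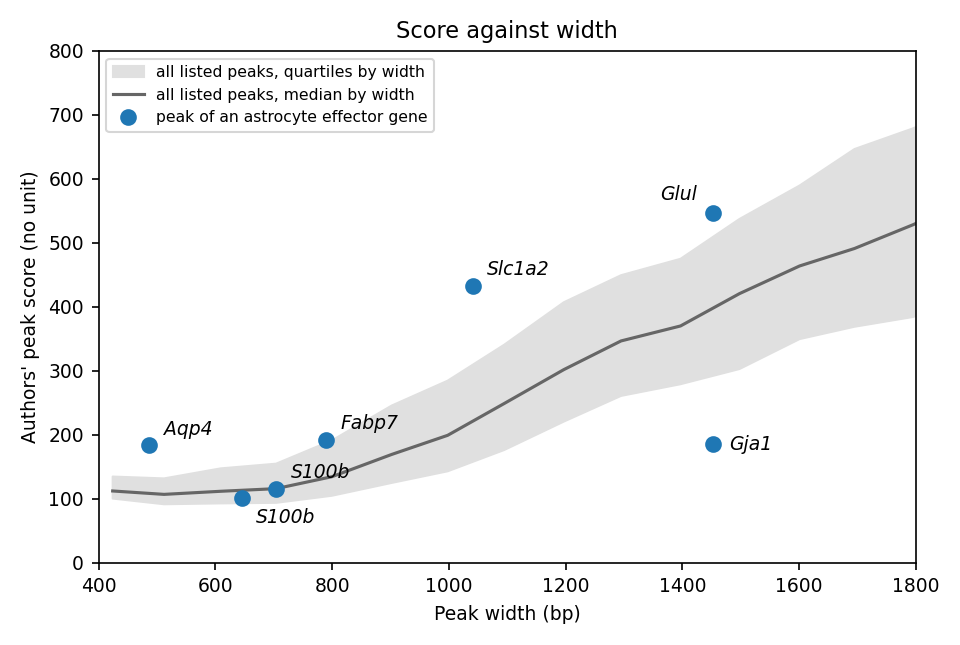
Score against width in bp of the 7 astrocyte effector peaks (blue points), with the median (line) and quartiles (band) of all listed peaks in bins of width. Aqp4, Slc1a2 and Glul lie above the band, Fabp7 lies at its upper edge, both S100b peaks lie within it, and Gja1, with almost the width of Glul, lies far below it.

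The GC box core was then counted in the 250 bases before the start of each gene. The RefSeq table held such windows for 9 of the 10 genes, and Aqp4 was not analysed here. The motif searched was GGGCGG on either strand. It stood in 32.7% of all 32851 windows and in 42.6% of the 21262 windows of coding genes. Of the 5 linked effector genes with a window, only Glul held it, once, 33 bases before the start; Slc1a2, Gja1, Fabp7 and S100b did not. Of the 4 genes without a listed peak, 3 held it once each: Aldoc, Aldh1l1 and Slc1a3, whose sequences are shown above. Gfap did not. Aldoc held it only in the window at its outer edge and not in its other window. A gene was counted if any of its windows held the motif, whereas the shares over coding genes count windows. Over all coding genes the motif stood in 57.4% of the windows of linked genes and in 24.2% of those of genes without a listed peak. The order among the effector genes ran the other way, over 9 genes without Aqp4. The windows of Slc1a2 and Aldh1l1 belong to starts inside the gene model, so this order rests in part on inner starts. It was not tested. In base composition, the Glul window had 64.8% G and C, more than 76.6% of the windows of coding genes. The other 4 linked genes ranged from 44.8% in Slc1a2 to 54.8% in Fabp7, all below the 60.8% median of linked coding genes. Of the genes without a listed peak, Aldh1l1 (59.6%), Gfap (55.6%) and Aldoc at its outer start (55.2%) lay above those 4 linked genes. They also lay above the 49.6% median of coding genes without a peak, while Slc1a3 had 44.8%. The other Aldoc window had 54.0%, below that of Fabp7. The ratio of observed to expected CpG was 0.60 for Glul and 0.47 for Gja1, and 0.08 to 0.21 for Slc1a2, S100b and Fabp7, against a median of 0.70 in windows of linked coding genes. A match of these letters is a description of the sequence and not a site bound by Sp9.

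Relatives of the effector genes were counted within each gene family. Over all families, 25 of 52 relatives had a listed peak (48.1%), beside 53.2% of coding genes, and 30.8% had one at or above the median score, beside 34.1%. Among the other members of the Slc1 transporter family, 4 of 5 had a listed peak, each above the list's median: Slc1a6 (601.62), Slc1a1 (344.57), Slc1a4 (289.61) and Slc1a5 (222.61), with none for Slc1a7. Slc1a6 encodes a transporter of cerebellar Purkinje cells and Slc1a1 one of neurons. The type III filament genes closest to Gfap all had a peak, with 426.89 for Prph, 417.49 for Des and 381.62 for Vim, the filament gene of radial glia. Aldoa, the muscle and general form of aldolase, had a peak of 154.81. Lgsn, a lens gene related to Glul, had a peak of 327.97. Aldh1l2 and S100a1 had none.

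The larger families were linked in part. Among other connexin genes, 10 of 19 had a listed peak (52.6%, near the 53.2% of coding genes) and 6 of 19 one at or above the median, among them Gjb2 (521.10) and Gjd3 (518.51). Gjb6, which like Gjb2 is also counted below among the other astrocyte genes, had a peak of 136.76. Among other aquaporin genes, 4 of 11 had a peak (36.4%), namely Aqp11 (491.80), Aqp2 (175.79), Aqp5 (172.16) and Aqp6 (103.00). Among other fatty acid binding proteins, 2 of 9 had one (22.2%), namely Fabp5 (402.41), which is also made in radial glia, and Fabp3 (156.33). The peak of Fabp5 scored higher than that of Fabp7. Linked connexin genes also included Gja3 (462.59), Gjc1 (424.39), Gjd2 (298.56), Gja4 (123.71) and Gjd4 (104.32).

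A wider list of 57 other astrocyte genes was counted in the same way. Of the 57, 46 (80.7%) had a listed peak, beside 53.2% of coding genes, and 24 (42.1%) had one at or above the median, beside 34.1%. The highest peaks of its linked genes had a median score of 264.81, beside 189.05 for the effector genes. Among genes with a peak, 52.2% of this list exceeded the list's median score, against 64.0% of linked coding genes. The list was drawn up with earlier results of these data known, and no difference from the effector genes was tested.

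The genes that work beside Aqp4 come first. Of 10 genes of aquaporin anchoring and ion handling, 8 had a peak (80.0%, beside 53.2% of coding genes). At or above the median there were 6 (60.0%, beside 34.1%). Dtna, part of the dystrophin complex that holds Aqp4 at the endfeet, scored 679.42. Atp1b2, a sodium pump subunit of astrocytes, scored 606.99, and the bicarbonate transporter Slc4a4 scored 430.04. Kcnj10, the potassium channel of the same endfeet, had a peak of 131.64, and Mlc1 had none. The anchoring gene Dtna thus scored higher than Aqp4 itself.

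Over all coding genes, 53.2% had a listed peak and 34.1% one at or above the median. Genes of glutamate, GABA and amino acid handling had peaks in 7 of 8 cases (87.5%). Above the median there were 3 (37.5%, near the share of coding genes). They were led by the GABA receptor subunit Gabrg1 (885.36), the glutamate dehydrogenase Glud1 (716.00) and the GABA transporter Slc6a11 (275.22), and Slc7a11, the cystine transporter, had none. All 5 filament and junction genes had a peak, and 4 (80.0%) exceeded the median, led by synemin (Synm, 791.85), Gjb2 and nestin (Nes, 520.92). Of 12 genes of metabolism and lipid handling, 9 had a peak and 4 exceeded the median: the lactate transporter Slc16a1 (623.17), Fabp5, the glucose transporter Slc2a1 (318.21) and Apoe (282.54). Acsbg1, Acsl3 and Ldhb had none. The filament genes examined other than Gfap (Vim, Nes, Synm, Des and Prph) all had a listed peak, beside 53.2% of coding genes. These few genes are drawn from this list and from the relatives of Gfap, and no difference from Gfap was tested.

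Secreted and synapse-organising genes had peaks in 8 of 10 cases (80.0%, beside 53.2% of coding genes). They were led by the glypicans Gpc6 (802.27, 8 peaks) and Gpc5 (753.93) and the proteoglycan Cspg5 (499.64), with none for Sparc and Thbs1. Surface receptors and other markers had peaks in 9 of 12 cases and above the median in 3. They were led by the growth factor receptor Fgfr3 (915.89, 5 peaks), the phosphatase Ptprz1 (332.54) and Ndrg2 (254.39). Cd44, which lies next to Slc1a2 in gene order, Ednrb and Megf10 had none.

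The myelin genes, the matching effector genes of oligodendrocytes, gave the same counts as the astrocyte effectors for any peak and at the median score. Of 10 myelin genes, 6 had a listed peak (60.0%, beside 53.2% of coding genes). At or above the median there were 2 (20%, beside 34.1%). At the upper quartile there was 1 of 10, beside 2 of 10 effector genes and 18.5% of coding genes. The highest myelin genes were Ugt8a (371.88), Gal3st1 (245.60) and Mbp (151.57). The Sox and Nfi factors that direct gliogenesis had peaks in 6 of 7 cases and at or above the median in 5, the highest being Nfia (870.59), Sox9 (342.58) and Nfix (306.60). The 7 factor genes had 17 peaks, or 2.43 per gene, whereas the astrocyte effectors had 0.70 and the myelin genes 0.80 per gene, beside 0.787 over all coding genes. None of these differences was tested, because the lists were chosen with earlier results known and the list holds no replicates.

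**Figure D4:**
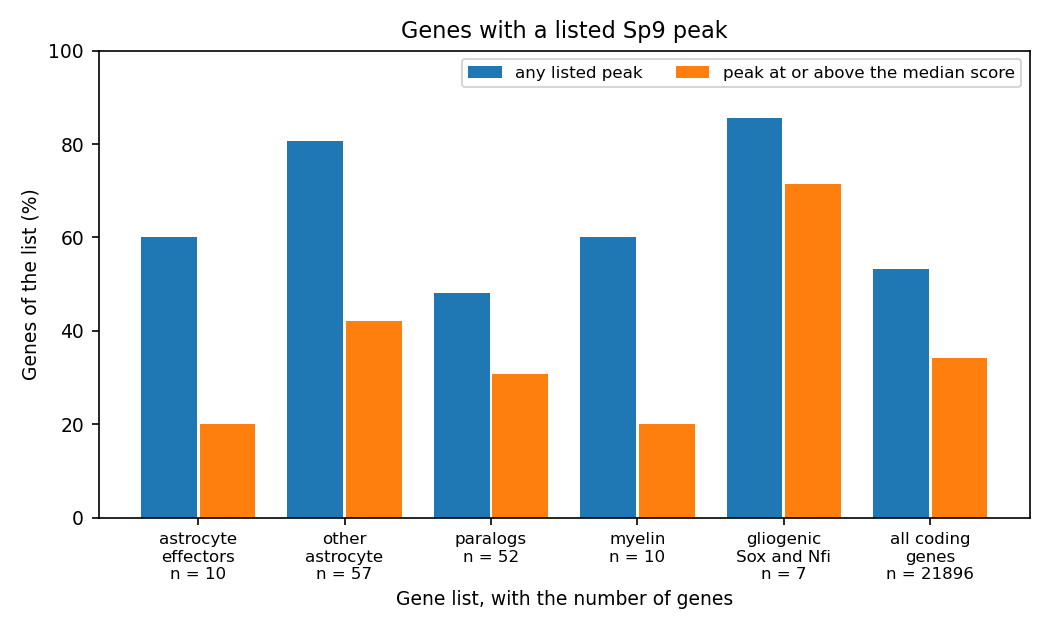
Percentage of the genes in each list with any listed Sp9 peak (blue) and with a peak at or above the list's median score (orange); the number of genes is under each pair. The astrocyte effectors stand at 60.0% and 20%, as do the myelin genes, beside 53.2% and 34.1% of all coding genes.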

How the data were processed

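Crosslinked chromatin of neonatal mouse olfactory bulbs was immunoprecipitated for Sp9 in 2 libraries, with 1 input library. Per the labels' protocols, fixation used 1% formaldehyde for 10 min, fragments were 200 to 1000 bp, and reads were paired ends of 150 bases. The submitters' processing notes name Bowtie2 2.2.4, MACS 1.4.2 and the build mm9, without roles or settings. The deposited list of shared peaks holds 1 peak score per peak; no label states how the authors made this score or what made a peak shared. The deposited start and end positions are other values, printed as given; counting from 0 or 1 is not stated.

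The members and gene lists were chosen with earlier results of these data known. Gene names were matched to RefSeq symbols (GRCm38.p6). Gene order and the outer edges of the member genes were taken from the same source, and no peak was placed on its coordinates. Gaps run between peak edges and windows between centres. The genes named were the 10 members, their relatives, up to 3 highest and 3 unlinked genes per role of the other lists (unlinked in alphabetical order), and neighbours; some genes that the rule would name are not reported here. Apoe and Kcnj10 were named after their values had been seen. No test was run. Neighbour and merging code was tested on simulated data. Alternatives were score thresholds, merging distances, synonyms and all gene classes. Python 3.11.15, pandas 2.3.3 and numpy 2.4.6 were used.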

Additional observations from a re-analysis of the deposited data

How the results depend on the processing

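The synonym share of coding genes was added after the data had been seen. With peaks at or above the median score only, linked effector genes numbered 2 instead of 6, their peaks 2 instead of 7, other astrocyte genes 24 instead of 46, and the share of coding genes was 34.1% instead of 53.2%. With peaks at or above the upper quartile, the counts were 2 of 10 effector and 16 of 57 other astrocyte genes, beside 18.5% of coding genes. The share of coding genes was 55.4% with synonyms and 25.6% over all gene classes. Fewer peaks or other genes enter these settings by construction. Merging the peaks of a gene within 1 or 10 kb left 7 peaks. This outcome was fixed, because only S100b had more than 1 peak and its peaks lay 28.2 kb apart. Synonyms left 6 and 46 genes. No paired analysis was possible because the file gives a single pooled score for each peak; leaving out a library was not run for the same reason. Absence from the list is bounded by a depth that is unknown.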
